A study of Mus musculus with 5 samples.

Results

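The B cell receptor and antibody genes Cd79a, Cd79b, Ms4a1, Ighm, Igkc, Jchain and Mzb1 were followed in bulk RNA sequencing of the mouse brain. These 7 of the 55573 genes in the count tables were taken from a list and matched by symbol, and all 7 passed the filter on low counts. C57BL/6 females, 7 to 8 weeks old at grafting, carried GL261 cells in the right caudate nucleus-putamen. GL261 is a single mouse glioma cell line, here transduced to express luciferase and mKate2, and only mice whose bioluminescence showed a growing tumor were used. The control group (3 mice) received inVivoPure Dilution Buffer and is called vehicle. The other group (2 mice) underwent ultrasound-mediated blood-brain barrier opening (UMBO), in which low-intensity pulsed ultrasound is applied after microbubbles are injected into the blood. The labels do not say whether UMBO mice also received the buffer. Sessions were given on days 21 and 24 and the tumor-bearing right hemisphere was taken 24 h after the last. Both groups therefore carried a tumor, no tumor-free brain was measured here, and perfusion to remove blood is not described for these mice, so RNA of cells left in the vessels would be counted with that of the tissue.

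A B cell recognises antigen through a membrane antibody that is held in a complex with the signalling chains CD79a and CD79b, encoded by Cd79a and Cd79b. Ms4a1 encodes CD20, a surface protein of mature B cells that is lost when they become plasma cells. Ighm encodes the constant part of the mu heavy chain of IgM, and Igkc that of the kappa light chain, the main light chain of the mouse. Plasma cells secrete antibody: Jchain encodes the chain that joins IgM and IgA into polymers, and Mzb1 a chaperone of the endoplasmic reticulum in which antibodies are assembled. The healthy brain holds few B cells, most of them in the meninges and vessels.

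Each B cell joins a single variable segment to the constant part of each chain, so the segments show whether the counts come from a mixture of antibodies or are led by a few. Most variable segments had no count at all, while vehicle mice 2 and 3 had counts concentrated on different segments. The 3 segments with the most counts over all libraries are Igkv10-96, Igkv14-111 and Ighv1-80. The segment Ighv3-8, the next in counts, was added after its values were seen because it led the heavy chain segments of vehicle replicate 2. Their germline sequence ahead of the third hypervariable loop is printed on the lines that follow. How well this stretch alone tells a segment from its relatives was not tested. The sequences are those of the GRCm38 reference and not of the mice. The capitals mark 9 bases that end with the codon of the conserved cysteine before the loop, and each line runs 5′ to 3′ on the strand of the gene.
Igkv10-96: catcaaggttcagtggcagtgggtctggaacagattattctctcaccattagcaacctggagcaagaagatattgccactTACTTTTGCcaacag
Igkv14-111: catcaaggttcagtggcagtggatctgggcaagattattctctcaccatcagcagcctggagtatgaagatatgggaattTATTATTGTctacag
Ighv1-80: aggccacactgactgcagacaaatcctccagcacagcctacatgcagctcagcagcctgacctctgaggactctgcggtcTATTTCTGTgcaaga
Ighv3-8: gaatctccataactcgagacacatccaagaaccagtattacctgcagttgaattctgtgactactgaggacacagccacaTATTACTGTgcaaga

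These stretches lie in coding exons at chr6:68631980-68632074 on the reverse strand (Igkv10-96), chr6:68256758-68256852 on the forward strand (Igkv14-111), chr12:115912344-115912438 on the reverse strand (Ighv1-80) and chr12:114322376-114322470 on the reverse strand (Ighv3-8). Variable segments resemble each other, which limits how well reads are told apart. The nearest relative of Ighv1-80 among the annotated segments was Ighv1-82, with 96.3% of 294 aligned bases identical. For Igkv10-96 it was Igkv10-94, with 95.4% of 347 bases, for Igkv14-111 it was Igkv14-126, with 91.6% of 358 bases, and for Ighv3-8 it was Ighv3-6, with 88.8% of 339 bases.

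Each library held between 59736771 and 86164159 counts, and levels are given as CPM, counts scaled to the same library size with edgeR's TMM factors. The groups were compared with the quasi-likelihood test of edgeR over 23592 genes. No gene passed the threshold of an adjusted p under 0.05 (0% of those tested, smallest adjusted p 0.497), so none of the differences described is a call. At an unadjusted p under 0.05, 5.3% of all genes were higher with UMBO and 2.06% lower, 7.37% in either direction. Ranks by p are among these 23592 genes, from the smallest. The DESeq2 Wald test, used as an alternative, called 39 genes at an adjusted p under 0.05, and none of the 7 genes was among them. UMBO replicate 2 stood apart from the other libraries: the summed level of 10 proliferation markers was 480 CPM in it against 35.9 to 116 in the others, that of 10 monocyte and macrophage markers was 615 CPM against 104 to 232, and that of 10 neuronal markers was 3159 CPM against 6227 to 9340. Log2 fold changes of the 7 genes and of the named genes of the lists, and the medians of the lists, are therefore given without it as well. In bulk RNA, more cells of a type and more RNA per cell cannot be told apart.

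Cd79b, the signalling chain of the B cell receptor on chromosome 11 (GRCm38, 106311341 to 106314762, reverse strand, 6 exonic blocks), differed most between the groups among the 7 genes. Its level was 0.227, 0.430 and 0.331 CPM in vehicle replicates 1 to 3, against 0.667 and 1.85 CPM in UMBO replicates 1 and 2. Both UMBO libraries lay above all vehicle libraries, as they did for 11.5% of all genes tested. The means were 0.329 ± 0.101 CPM (SD, n = 3) and 1.26 ± 0.835 CPM (SD, n = 2), a ratio of 3.82, and the log2 fold change was 1.92 (SE 0.55). The edgeR p was 0.0124, rank 191 of 23592 genes, and the adjusted p 0.497. The counts behind these levels were 17, 29 and 28 with vehicle and 57 and 121 with UMBO. In UMBO replicate 1 the exact 95% counting interval, 0.507 to 0.867 CPM before TMM scaling, lay next to that of vehicle replicate 2, 0.292 to 0.626, and overlapped it. Without UMBO replicate 2 the log2 fold change of Cd79b was 1.02 (edgeR adjusted p = 1.00).

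Cd79a, the partner chain (chromosome 7, 24897381 to 24902197, forward strand, 5 exonic blocks), did not separate the groups. It was at 0.388, 0.846 and 0.272 CPM with vehicle and at 0.421 and 1.37 CPM with UMBO. UMBO replicate 1 lay among the vehicle libraries, and only UMBO replicate 2 exceeded them. The log2 fold change was 0.84 (SE 0.69, edgeR adjusted p = 0.545), and it was -0.24 without UMBO replicate 2. Both chains are needed in equal number for a receptor, and their levels per kilobase of exon can be set side by side. The ratio of Cd79b to Cd79a, each as CPM per kilobase, was 0.597, 0.518 and 1.24 with vehicle, against 1.61 and 1.37 with UMBO. The group difference of this ratio was not tested.

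Ms4a1 (CD20, chromosome 19, 11249675 to 11266241, reverse strand, 6 exonic blocks) was at 0.227, 0.163 and 0.0945 CPM with vehicle and at 0.164 and 0.336 CPM with UMBO. These levels rest on 8 to 22 counts per library, and the groups overlapped. The log2 fold change was 0.62 (SE 0.56, edgeR adjusted p = 0.574), and it was 0.03 without UMBO replicate 2. Per kilobase Ms4a1 was the lowest of the 7 genes, with a mean of 0.0318 CPM per kilobase over all libraries.

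Ighm (chromosome 12, 113418558 to 113422730, reverse strand, 6 exonic blocks) was the most abundant of the 7 genes, with 1736 to 2805 counts per library. It was at 37.5, 41.6 and 21.0 CPM with vehicle and at 25.5 and 26.5 CPM with UMBO. Both UMBO libraries lay between vehicle replicates 3 and 1. The means were 33.4 ± 10.9 CPM (SD, n = 3) and 26.0 ± 0.742 CPM (SD, n = 2), and the log2 fold change was -0.36 (SE 0.31, edgeR adjusted p = 0.557). It was -0.39 without UMBO replicate 2.

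Igkc (chromosome 6, 70726435 to 70726966, forward strand, a single exonic block) varied far more between mice of the same group than between groups. It was at 0.976, 9.84 and 1.87 CPM with vehicle and at 1.35 and 5.13 CPM with UMBO. The highest and the lowest library were both vehicle libraries and differed 10.1-fold. The log2 fold change was -0.38 (SE 1.07, edgeR adjusted p = 0.856). It was 1.22 without vehicle replicate 2, 0.26 without UMBO replicate 1 and -1.65 without UMBO replicate 2, so its direction rests on single mice.

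Jchain (chromosome 5, 88519809 to 88527891, reverse strand, 4 exonic blocks) was the only one of the 7 genes for which both UMBO libraries lay below all vehicle libraries, as they did for 11.4% of all genes. It was at 1.34, 2.49 and 1.59 CPM with vehicle and at 1.02 and 0.992 CPM with UMBO. The means were 1.81 ± 0.606 CPM (SD, n = 3) and 1.01 ± 0.0179 CPM (SD, n = 2). The log2 fold change was -0.84 (SE 0.39), with an edgeR p of 0.0724 and an adjusted p of 0.497, and it lay between -1.02 and -0.52 with any 1 library left out (-0.83 without UMBO replicate 2). The counts were 100, 168 and 135 with vehicle and 87 and 65 with UMBO.

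Mzb1 (chromosome 18, 35647267 to 35649367, reverse strand, 4 exonic blocks) was close to the limit of detection, with 3, 13 and 7 counts with vehicle and 11 and 6 with UMBO. Its level was 0.0401, 0.193 and 0.0827 CPM with vehicle and 0.129 and 0.0916 CPM with UMBO. The groups overlapped and the log2 fold change was 0.10 (SE 0.72, edgeR adjusted p = 0.949), with 0.31 when UMBO replicate 2 was left out. Mzb1 shares 695 exonic bases with Spata24 on the same strand, so its counts are uncertain. No exon of another gene overlaps the other 6 genes.

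Of the 7 genes, 4 had a positive and 3 a negative log2 fold change, with a median of 0.10 against 0.01 over all genes tested. Cd79b was the 1 gene of 7 at an unadjusted p under 0.05, to be read against 5.3% of all genes higher and 7.37% in either direction. The B cell surface genes Cd79a, Cd79b and Ms4a1 had positive values, as did Mzb1, and the antibody genes Ighm, Igkc and Jchain had negative values. With 1 library left out the sign turned for Cd79a, Igkc and Mzb1, and Ms4a1 was at 0.03 without UMBO replicate 2.

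**Figure D1:**
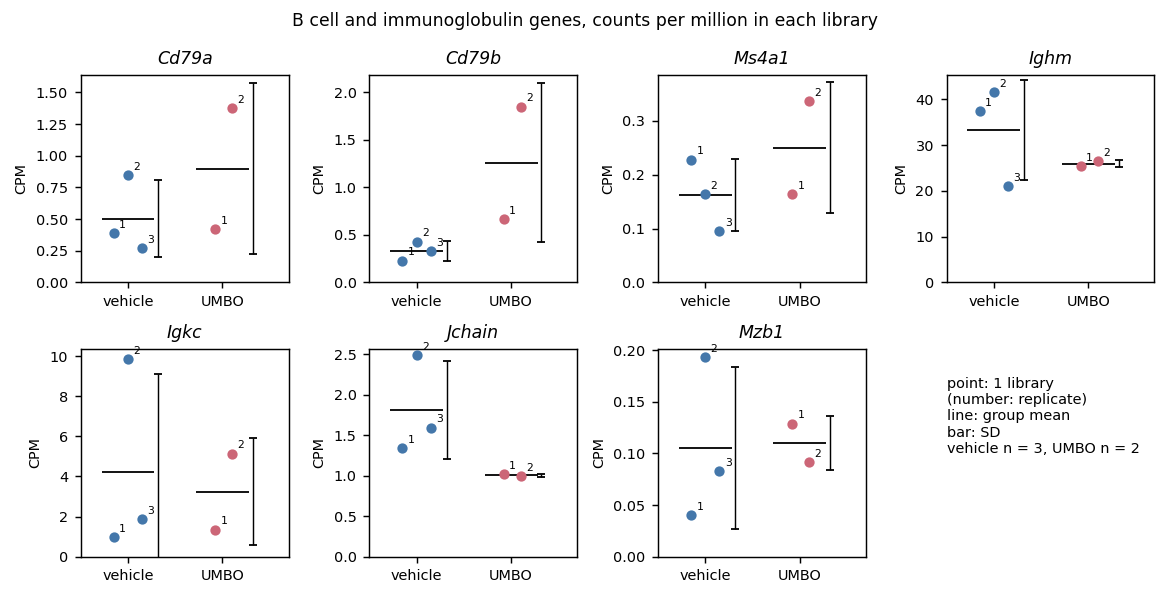
Level of each of the 7 genes in CPM (linear axis from 0) in 3 vehicle (blue) and 2 UMBO (red) libraries, with 1 point per library numbered by replicate, a line at the group mean and a bar for the SD beside it (cut at 0 for Igkc). Both UMBO points lie above all vehicle points for Cd79b, from 0.667 CPM, and below them for Jchain, at 1.02 CPM or less, and the groups overlap for the other 5 genes.

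The 7 genes did not follow each other closely across the mice. The distance between a pair of genes was taken as the root mean square difference of their log2 CPM over the 5 libraries after each gene was centred on its own mean. The nearest pair was Ighm and Jchain, at 0.423, and the farthest was Cd79b and Jchain, at 1.31. Cd79a and Cd79b stood 0.631 apart. In vehicle replicate 2 Igkc was 9.84 CPM and Jchain 2.49 CPM, each the highest of the 5 libraries, while Cd79b, at 0.430 CPM, lay below both UMBO libraries and Ms4a1, at 0.163 CPM, below vehicle replicate 1.

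**Figure D2:**
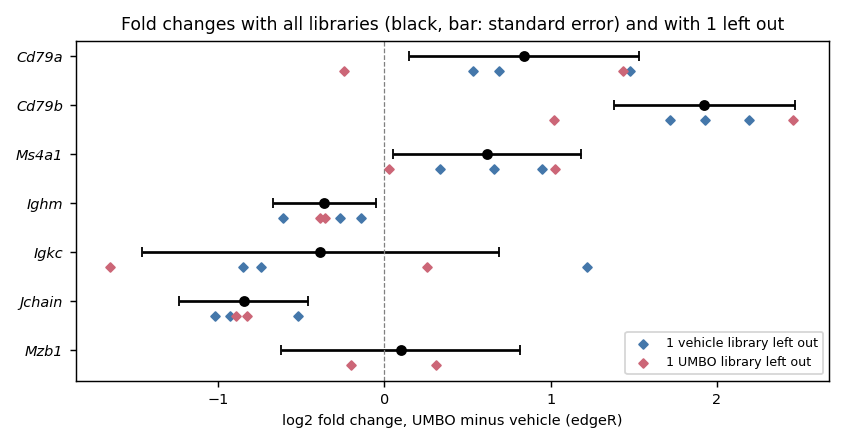
Log2 fold change of UMBO against vehicle from edgeR for the 7 genes with all 5 libraries (black point, bar: standard error) and with 1 vehicle library (blue) or 1 UMBO library (red) left out, where the gene still passed the filter. Cd79b stays above 0 at 1.02 to 2.46 and Jchain below 0 at -1.02 to -0.52, whereas the points of Cd79a, Igkc and Mzb1 lie on both sides of 0.

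Expressed per kilobase of exon, the mean levels over the 5 libraries ran from Ighm at 16.1 and Igkc at 7.20 CPM per kilobase, through Jchain at 0.591, Cd79b at 0.490 and Cd79a at 0.453, to Mzb1 at 0.0882 and Ms4a1 at 0.0318. Across libraries Ighm overlapped Igkc, Jchain overlapped Cd79b and Cd79a, and Mzb1 overlapped Ms4a1, while the steps from Igkc to Jchain and from Cd79a to Mzb1 were larger than the spread. Each antibody holds heavy and light chains in equal number, but the ratio of Ighm to Igkc per kilobase was 10.8, 1.19 and 3.17 with vehicle and 5.34 and 1.46 with UMBO. The 2 libraries with the most Igkc, vehicle replicate 2 and UMBO replicate 2, had the lowest ratios. Ighm counts also outnumbered counts on heavy chain variable segments by a factor that varied between mice. There were 112, 18.0 and 22.5 Ighm counts for each Ighv count with vehicle and 98.9 and 43.4 with UMBO. The corresponding number of Igkc counts per Igkv count was between 1.26 and 3.54 in all libraries. How mapping to variable segments contributes to these ratios was not tested.

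The antibody classes were read from the other constant genes of the heavy chain. Ighg2c, which encodes a constant part of IgG and was the second most abundant heavy chain constant gene, was at 4.97, 4.21 and 3.64 CPM with vehicle and at 1.46 and 1.98 CPM with UMBO. Both UMBO libraries lay below all vehicle libraries, as they did for 11.4% of all genes. The means were 4.28 ± 0.670 CPM (SD, n = 3) and 1.72 ± 0.369 CPM (SD, n = 2), the log2 fold change was -1.31 (SE 0.32), and the edgeR p was 0.00603, rank 62 of all genes, with an adjusted p of 0.497. Without UMBO replicate 2 it was -1.54.

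Ighg1, another IgG gene, pointed the other way without separating the groups. It was at 0.0802, 0.608 and 0.0945 CPM with vehicle and at 0.246 and 2.34 CPM with UMBO, and the log2 fold change was 2.31 (SE 1.19, edgeR adjusted p = 0.497). Ighg2b was at 0.227, 2.37 and 0.130 CPM with vehicle and at 0.0702 and 1.73 CPM with UMBO, so that vehicle replicate 2 and UMBO replicate 2 were high and the other 3 libraries low. Its log2 fold change was -0.02 (SE 1.56). Without UMBO replicate 2 the log2 fold change of Ighg1 was -0.06 and that of Ighg2b -3.66.

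Igha, the gene of IgA, was highest in vehicle replicate 2, at 1.38 CPM, and at 0.201 to 0.667 CPM elsewhere (log2 fold change -0.14, SE 0.90). Ighd, the gene of IgD, which naive B cells carry beside IgM, was at 0.445 to 0.947 CPM in all libraries (log2 fold change 0.23, SE 0.43). Without UMBO replicate 2 the values were 0.14 for Igha and -0.40 for Ighd. Ighg3, with 2 to 10 counts per library, did not pass the filter. Ighe, the gene of IgE, had no count in any library, which allows up to 0.0348 to 0.0502 CPM in a library.

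Of the lambda light chain genes, Iglc2 had 0, 18 and 2 counts with vehicle and 1 and 20 with UMBO (log2 fold change 0.70, SE 1.61, and -2.83 without UMBO replicate 2), and Iglc1 and Iglc3, with 1 to 15 counts per library, were not tested. Of the 8 constant genes tested, 3 had positive and 5 negative log2 fold changes, with a median of -0.08. The median was -1.60 without UMBO replicate 2 and 1.22 without vehicle replicate 2, so its sign rests on single libraries. Ighg2c was the 1 gene of 8 at an unadjusted p under 0.05, a lower value, as for 2.06% of all genes.

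The shares of the classes set aside the total amount of antibody RNA in a library, though they can still vary with it. The mu gene made up 85.7%, 81.7% and 82.0% of heavy chain constant counts with vehicle and 89.7% and 78.0% with UMBO. The UMBO values lay on either side of the vehicle values, and the group means were 83.1 ± 2.22% (SD, n = 3) and 83.8 ± 8.33% (SD, n = 2), with a difference of 0.73 percentage points (2-sided exact permutation test, p = 0.8). The kappa share of light chain constant counts was 89.0%, 94.4% and 95.8% with vehicle and 95.0% and 88.9% with UMBO, a difference of -1.11 points (exact permutation p = 0.7).

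Among the heavy chain constant counts other than Ighm, Ighg2c held 79.3%, 45.2% and 78.8% with vehicle and 50.2% and 26.5% with UMBO, a difference of -29.4 points (exact permutation p = 0.3). Ighg1 held 1.28%, 6.53% and 2.05% with vehicle and 8.43% and 31.2% with UMBO, a difference of 16.5 points. Both UMBO libraries lay above the vehicle libraries, but the exact 95% binomial interval of UMBO replicate 1, 5.30% to 12.6%, overlapped that of vehicle replicate 2, 4.73% to 8.75%. The exact permutation p of Ighg1 was 0.1, the smallest that the 10 groupings of 3 and 2 libraries allow, so that no share could reach 0.05. In all 11 shares were compared, and adjusted over them the exact permutation p was 0.978 or higher for each.

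**Figure D3:**
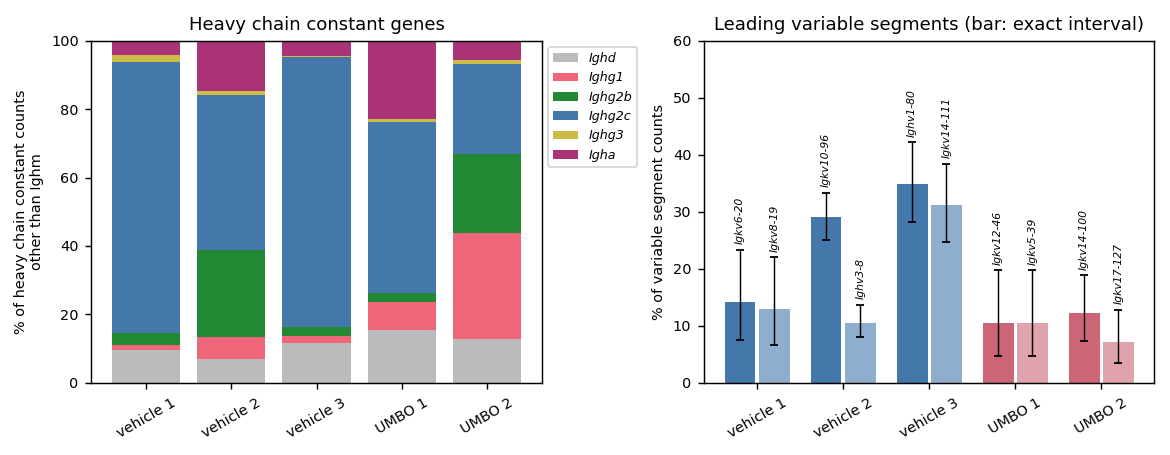
Left, the make-up of heavy chain constant counts other than Ighm in each library (percent, stacked to 100). Right, the 2 variable segments with the most counts in each library as a percentage of all its variable segment counts, with exact 95% binomial intervals. Ighg2c (blue, left) ranges from 45.2% to 79.3% over the vehicle libraries. UMBO replicate 1, at 50.2%, lies inside that range, and UMBO replicate 2, at 26.5%, lies below it. The leading segment (right) reaches 34.9% for vehicle replicate 3 and 29.0% for vehicle replicate 2. That of vehicle replicate 1, at 14.1%, is nearer to those of the UMBO libraries, at 10.5% and 12.2%.

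Summed over all variable, diversity, joining and constant genes of the 3 antibody loci, the level was 46.2, 68.9 and 30.3 CPM with vehicle and 30.8 and 42.0 CPM with UMBO. The UMBO libraries lay within the vehicle range. The means were 48.5 ± 19.4 CPM (SD, n = 3) and 36.4 ± 7.94 CPM (SD, n = 2), and the difference of log2 sums was -0.35 (2-sided exact permutation test, p = 0.5). Most of this sum was Ighm. Without Ighm the sum was 8.76, 27.3 and 9.31 CPM with vehicle and 5.36 and 15.5 CPM with UMBO, a log2 difference of -0.52 (exact permutation p = 0.7).

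The variable segments were sparse. Of 348 segments in the tables, 123 had a count in any library, 58 had counts in a single library and 3 in all 5 libraries, and together they held 972 counts. Vehicle replicates 1 to 3 had 85, 483 and 189 of these counts over 37, 69 and 34 segments, and UMBO replicates 1 and 2 had 76 and 139 over 32 and 62 segments. A single segment, Igkv14-111, passed the filter on low counts. It had 3, 22 and 59 counts with vehicle and 1 and 2 with UMBO, and its log2 fold change was -4.04 (SE 1.38, edgeR adjusted p = 0.497). It passed only through vehicle replicates 2 and 3, where it was high, so this value is no support for a group difference.

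The segments that led were different from mouse to mouse. Igkv10-96, whose sequence opens the lines above, had 140 counts in vehicle replicate 2 and 0 to 3 in the other 4 libraries. That was 29.0% of the variable segment counts of this mouse (exact 95% binomial interval 25% to 33.3%). Ighv3-8 had 51 counts in the same mouse, 10.6%, and at most 1 in any other. In vehicle replicate 3 Ighv1-80 had 66 counts, 34.9% (28.1% to 42.2%), and Igkv14-111 had 59, 31.2% (24.7% to 38.3%).

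No segment led to that extent in the other 3 mice. The leading segments there, again named after their values were seen, were Igkv6-20 in vehicle replicate 1 with 12 counts, 14.1% (7.51% to 23.4%), Igkv12-46 and Igkv5-39 in UMBO replicate 1 with 8 counts each, 10.5%, and Igkv14-100 in UMBO replicate 2 with 17 counts, 12.2%. A heavy and a kappa segment thus had the most counts in vehicle replicates 2 and 3. The share of Ighv3-8 in vehicle replicate 2, 10.6%, was below that of Igkv6-20 in vehicle replicate 1. Bulk counts do not show which chains were paired in a cell. All intervals cover counting error only.

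The other genes of the B cell receptor pathway were followed as lists. Of 15 genes of the receptor, its coreceptors and B cell surface proteins, 14 were tested, all 14 had a positive log2 fold change, and the median was 1.09. Over all genes tested 50.9% had a positive value, the share to set beside the signs in each list. Of these 14, 5 were at an unadjusted p under 0.05 and higher, and for 4 both UMBO libraries lay above all vehicle libraries, to be read against 5.3% and 11.5% of all genes. Cd79b and Cxcr5 are among both, and Cd79a and Ms4a1 are on the list. Cd37, a tetraspanin of B cells and other leukocytes, was at 4.64, 10.9 and 5.50 CPM with vehicle and at 11.0 and 24.0 CPM with UMBO (log2 fold change 1.32, SE 0.49, rank 1053 by p).

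Cd22, a sialic acid receptor that restrains B cell receptor signals and is also found on microglia, was at 0.923, 2.48 and 1.09 CPM with vehicle and at 2.35 and 6.72 CPM with UMBO (log2 fold change 1.60, SE 0.62, rank 1313 by p). Cxcr5, the receptor that guides B cells into follicles, had 9, 6 and 5 counts with vehicle and 15 and 17 with UMBO (log2 fold change 1.27, SE 0.50, rank 1494 by p). It passed the filter on low counts only through the UMBO libraries, where it was high, so its p is no support for a group difference. The adjusted p was 0.497 for each of these genes. Exons of another gene overlap those of Cd37 (Tead2), Cd22 (Gm29439) and Cxcr5 (Bcl9l) on the opposite strand, and reads of such partners cannot be told apart here. The median of the list was 0.28 without UMBO replicate 2, and the fitted log2 fold changes were then 0.65 for Cd37, 0.66 for Cd22 and 0.97 for Cxcr5.

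Of 18 genes that carry the signal inward from the receptor or restrain it, 16 had positive and 2 negative log2 fold changes, with a median of 0.81. There were 6 at an unadjusted p under 0.05, all higher with UMBO, and 9 with both UMBO libraries above all vehicle libraries. These are to be read against 5.3% and 11.5% of all genes. Prkcb, the most abundant gene of the list, was named after its values were seen. For it both UMBO libraries lay below all vehicle libraries, as they did for 11.4% of all genes. Its means were 489 CPM with vehicle and 293 CPM with UMBO (log2 fold change -0.74, SE 0.30, and -0.56 without UMBO replicate 2). Lyn, the kinase that phosphorylates CD79a and CD79b, was at 10.6, 20.4 and 14.0 CPM with vehicle and at 25.4 and 42.6 CPM with UMBO (log2 fold change 1.18, SE 0.35, rank 243 by p). Blnk, the adaptor that links the kinase Syk to downstream enzymes, was at 9.29, 8.75 and 6.13 CPM with vehicle and at 11.6 and 22.3 CPM with UMBO (log2 fold change 1.07, SE 0.34, rank 444 by p).

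Inpp5d, a phosphatase that dampens the signal, had a log2 fold change of 0.77 (SE 0.26, rank 572 by p), and Vav1, an exchange factor of blood cells, one of 1.43 (SE 0.52, rank 916 by p). Lyn, Blnk, Inpp5d and Vav1 each had an adjusted p of 0.497. Lyn, Inpp5d and Vav1 are also used by myeloid cells. Blk, a kinase largely restricted to B cells and named after its values were seen, had 5, 9 and 5 counts with vehicle and 2 and 15 with UMBO, with overlapping groups (log2 fold change 0.50, and -1.79 without UMBO replicate 2). An exon of Gm26857 overlaps Lyn on the opposite strand. The median of the list was 0.37 without UMBO replicate 2, and the fitted log2 fold changes were then 0.76 for Lyn, 0.52 for Blnk, 0.43 for Inpp5d and 0.65 for Vav1.

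Markers of other cells also differed between the libraries. Of 10 microglia markers, 6 were at an unadjusted p under 0.05 and higher, and for 8 both UMBO libraries lay above all vehicle libraries. These are to be read against 5.3% and 11.5% of all genes. The summed level of the microglia markers was 362 to 518 CPM with vehicle and 699 and 837 CPM with UMBO. Of 10 monocyte and macrophage markers, 3 were at an unadjusted p under 0.05 and higher, against 5.3% of all genes. Their sum was 104 to 232 CPM with vehicle and 223 and 615 CPM with UMBO. Of 10 T cell markers none was at an unadjusted p under 0.05, and their sum was 21.5 to 37.3 CPM with vehicle and 14.0 and 54.4 CPM with UMBO. Cd4 held much of that sum in vehicle replicate 1, at 14.6 CPM. It was the 1 marker with a negative log2 fold change (-0.90), and 9 had positive ones. The median of the T cell list against the vehicle mean was -0.59 on the log2 scale in UMBO replicate 1 and 1.82 in UMBO replicate 2. Of 8 plasmacytoid dendritic cell markers, a cell type that also makes Jchain, none was at an unadjusted p under 0.05, and their sum was 381 to 518 CPM with vehicle and 523 and 740.5 CPM with UMBO. Most of that sum was Tcf4, a factor of many cells, at 336 to 453 CPM in all libraries, and Bst2, an interferon-induced gene, at 249 CPM in UMBO replicate 2 and 11.0 to 66.7 CPM elsewhere. The median of this list against the vehicle mean was -0.16 on the log2 scale in UMBO replicate 1 and 1.09 in UMBO replicate 2. None at an unadjusted p under 0.05 was found either among 8 red blood cell markers, whose sum was 345 to 389 CPM with vehicle and 490 and 413 CPM with UMBO. No marker of these 5 lists was at 0 in all libraries. The part of these cells in the values of Cd37, Cd22, Lyn, Jchain and the other genes was not tested.

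**Figure D4:**
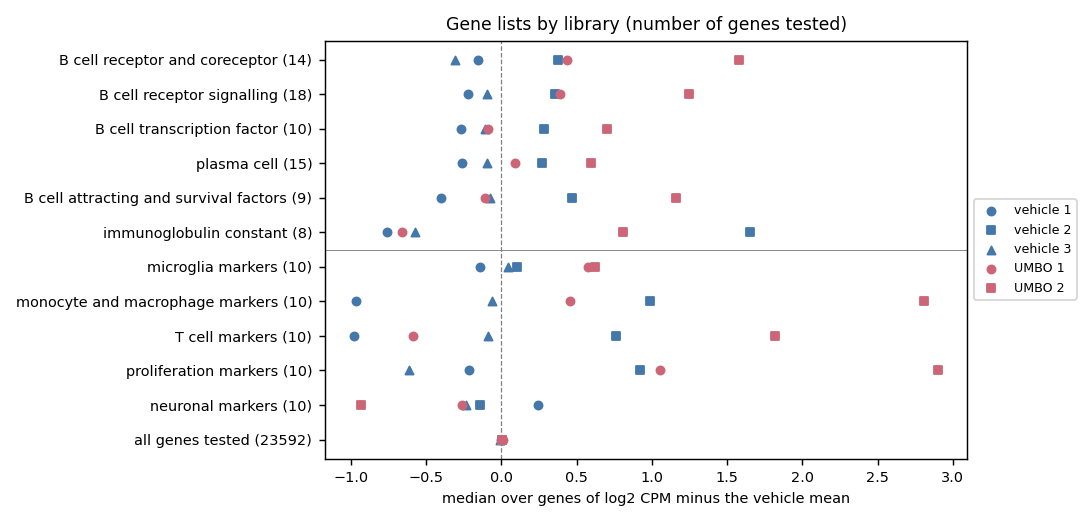
Median over the genes of each list of log2 CPM minus the mean of the vehicle libraries, with 1 point per library (blue: vehicle, red: UMBO, shape: replicate) and the number of genes tested in brackets. Of the 6 B cell and antibody lists drawn, above the line, UMBO replicate 2 lies highest in 5, and in the immunoglobulin constant genes vehicle replicate 2 lies highest at 1.65, and UMBO replicate 1 lies below vehicle replicate 2 in 4 of the 6. The recombination list, with 2 genes tested, is not drawn.

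The transcription factors of the B lineage were divided. Of 10, 6 had positive and 4 negative log2 fold changes, with a median of 0.25. At an unadjusted p under 0.05 there was 1, against 7.37% of all genes in either direction. This was Id3, an inhibitor of E proteins that many cell types use, at 19.6, 30.8 and 22.1 CPM with vehicle and 52.3 and 71.4 CPM with UMBO. Its log2 fold change was 1.36 (SE 0.26, rank 15 by p, edgeR adjusted p = 0.497).

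The next in order of p were Irf8, which is also a factor of microglia and other myeloid cells (log2 fold change 1.50, SE 0.64, rank 2138 by p), Spib (1.28, SE 0.85, rank 8581 by p) and Bach2 (-0.47, SE 0.36, rank 10685 by p). Pax5, the factor that fixes B cell identity, also named after its values were seen, was highest in vehicle replicate 3, at 2.27 CPM, and at 0.356 to 0.901 CPM in the other libraries. Vehicle replicate 3 was not the highest library for any of the 7 B cell and immunoglobulin genes. The median of the list was -0.15 without UMBO replicate 2, and the fitted log2 fold changes were then 1.116 for Id3, 0.48 for Irf8, -0.46 for Spib, -0.057 for Bach2 and -0.16 for Pax5.

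Of 15 plasma cell genes, 14 had a positive log2 fold change, and Jchain was the 1 with a negative one. The median was 0.34, or 0.075 without UMBO replicate 2. At an unadjusted p under 0.05, 2 genes were higher, against 5.3% of all genes. Sdc1, which encodes the plasma cell surface proteoglycan CD138 and is also made by epithelial and tumor cells, was at 1.94, 3.60 and 1.81 CPM with vehicle and at 3.51 and 14.0 CPM with UMBO (log2 fold change 1.84, SE 0.63, rank 643 by p). Fkbp11, a folding enzyme of secretory cells, was at 0.749, 1.53 and 0.697 CPM with vehicle and at 1.21 and 5.70 CPM with UMBO (log2 fold change 1.80, SE 0.71, rank 1460 by p). For both genes UMBO replicate 1 lay below vehicle replicate 2.

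Tnfrsf13b, the receptor TACI for B cell survival factors, was higher in both UMBO libraries than in all vehicle libraries, as were 11.5% of all genes (log2 fold change 0.83, SE 0.34, rank 1843 by p). Creld2, a protein of the endoplasmic reticulum stress response, had a log2 fold change of 0.94 (SE 0.42, rank 2791 by p). Each of these 4 genes had an adjusted p of 0.497. With UMBO replicate 2 left out the values were 0.52 for Sdc1, 0.29 for Fkbp11, 0.49 for Tnfrsf13b and 0.058 for Creld2. Jchain and Sdc1, both used as markers of antibody-secreting cells, thus had values of opposite sign in the same libraries.

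Of 12 factors that attract B cells or keep them alive, 9 were tested, 7 had positive and 2 negative log2 fold changes, and the median was 0.58. The 1 at an unadjusted p under 0.05, against 7.37% of all genes in either direction, was Il6, a cytokine that promotes plasma cell formation. It had 2, 16 and 11 counts with vehicle and 19 and 147 with UMBO (log2 fold change 3.22, SE 1.11, rank 696 by p). Cxcl13, the ligand of CXCR5, was at 0.415, 1.08 and 1.05 CPM with vehicle and at 0.901 and 5.15 CPM with UMBO (log2 fold change 1.83, SE 0.78, rank 2172 by p). Flt3l (0.50, SE 0.35, rank 9500 by p) and Ltb (1.01, SE 0.76, rank 10435 by p) followed. UMBO replicate 1 lay among the vehicle libraries for Cxcl13, Flt3l and Il6, and level with the lowest of them for Ltb. The median of the list was -0.19 without UMBO replicate 2, and the fitted log2 fold changes were then 0.77 for Il6, 0.083 for Cxcl13, -0.0069 for Flt3l and -0.67 for Ltb.

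Of 7 genes of the surrogate light chain and of antibody gene recombination, which mark B cell precursors, 2 were tested, and both had negative log2 fold changes. Rag1, a subunit of the recombinase, had 14, 12 and 15 counts with vehicle and 6 and 1 with UMBO (log2 fold change -1.97, SE 0.65, rank 494 by p, adjusted p = 0.497). It passed the filter on low counts only through the vehicle libraries, where it was high, so its p is no support for a group difference. Part of Rag1 is shared with B230118H07Rik on the same strand, so its counts are uncertain. Its partner Rag2, which recombination also needs, had 2 counts in vehicle replicate 2 and none elsewhere. Vpreb1 had 7 to 19 counts per library (log2 fold change -0.41, SE 0.55). Leaving out UMBO replicate 2 gave -1.34 for Rag1 and -0.69 for Vpreb1, with a median of -1.02 against -1.19 with all libraries.

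Over the 7 lists together, 76 of 89 genes were tested, and 15 were at an unadjusted p under 0.05 and higher and 2 lower, to be read against 5.3% and 2.06% of all genes. This total of 17 was 2 without UMBO replicate 2, where that of all genes was 455 against 1738 with all libraries. The total includes Cxcr5 and Rag1, which each passed the filter on low counts only through the group where they were high. Of the 76 genes, 60 had a positive and 16 a negative log2 fold change, so 78.9% were positive against 50.9% of all genes. Part of these signs turned without UMBO replicate 2. The list medians were then -0.15 for the transcription factors and -0.19 for the attracting and survival factors. They stayed positive for the receptor (0.28), signalling (0.37) and plasma cell (0.075) lists. Without the 7 members the numbers were 14 higher and 2 lower among 69 genes tested.

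The genes whose profile over the 5 libraries lay nearest to each member were found with the same distance as above, over all genes tested. With 23592 candidates and 5 libraries, close profiles are to be found for most genes. Those nearest to Cd79a were 8030445P17Rik (0.0406), Gm44798 and Gm38021, and those nearest to Cd79b were AC131692.1 (0.10), Pkn3 and Klk7. Ms4a1 lay nearest to Dhx58os (0.0739), Gm7172 and Rpl7a-ps11, Ighm to Gm15567 (0.0772), Nanos2 and Gm12439, Jchain to Gm10441 (0.0628), Gm28496 and Gm13550, and Mzb1 to Gm17098 (0.116), Serpina3h and 1700019G24Rik. Igkc had no gene as close, its nearest being Dnase1l3 (0.345), a secreted nuclease, and the antigen-loading genes H2-DMb2 (0.411) and H2-Oa (0.419) of the MHC class II pathway. All 3 were highest in vehicle replicate 2 and UMBO replicate 2, the same libraries as Igkc.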

How the data were processed

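Bulk RNA of the right hemisphere of 5 mice (3 vehicle, 2 UMBO, by the labels, which describe different mice) was analysed, although the study's methods describe more mice than the 5 libraries used here. The authors mapped reads with STAR 2.7.2a to GRCm38 (mm10), and the deposited values are raw counts per Ensembl gene without normalization. The library kit is named as SMARTER mRNA-Seq. The annotation release and strand setting of the counting are not given in the sources used here, so reads of antisense partners cannot be told apart. Symbols, positions and sequences came from GENCODE M21 on the same build (55394 of 55573 identifiers matched), and counts without a symbol were at most 0.101% of a library.

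Counts were normalized by TMM, filtered with filterByExpr and compared in edgeR 4.0.16 under R 4.3.3 (quasi-likelihood F test), with p-values Benjamini-Hochberg adjusted over 23592 genes, with a threshold of 0.05. The common dispersion was 0.1181. Profile distances used log2 CPM with a prior count of 2. Sums and shares were compared with a 2-sided exact permutation test over 10 groupings. Shares have exact (Clopper-Pearson) 95% intervals, counts have exact Poisson intervals, and a count of 0 allows up to 3 counts. The fit was tested on simulated data with 200 genes changed 4-fold. Alternatives were DESeq2 1.42.0, other normalizations and filters, the replicate number as a block and each library left out.

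The members and lists were chosen with earlier results of these data known. Named were all members and constant genes, the 4 genes of smallest p in each B cell list, the 3 variable segments with the most counts and the 3 genes nearest each member. Sums without Ighm and lists without the members were added after seeing the data. The RefSeq promoter table was not used. A gene of the lists is not reported here.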

Additional observations from a re-analysis of the deposited data

How the results depend on the processing

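None of the 7 genes passed an adjusted p under 0.05 with the alternatives tried, apart from Cd79b in 2 settings below. The number of all genes called, 0 with edgeR, was 39 with the DESeq2 Wald test (2738 at an unadjusted p under 0.05) and 0 to 4543 with 1 library left out, the highest without UMBO replicate 1, where UMBO replicate 2 stands alone and is assumed to vary like the other group. Of the listed genes, 17 were at an unadjusted p under 0.05. There were 29 without a filter on low counts, 11 at a mean of at least 1 CPM, 28 with DESeq2, and 2 to 41 with 1 library left out, the fewest without UMBO replicate 2 and also few without vehicle replicates 1 (6) and 3 (4). Cd79b had a log2 fold change of 1.72 to 2.46 unless UMBO replicate 2 was left out (1.02), with an adjusted p of 0.0390 without UMBO replicate 1 and of 0.189 with DESeq2.

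With 1 library left out, signs turned for Cd79a (range -0.24 to 1.47, negative without UMBO replicate 2), Igkc (-1.65 to 1.22, positive without vehicle replicate 2 and, at 0.26, without UMBO replicate 1) and Mzb1 (-0.20 to 0.31, negative without UMBO replicate 1). With library size only they turned for Bcl6 (0.014) and Ighg2b (0.10). That scaling moved the median over all genes from 0.01 to 0.13. The kappa share difference was 1.61 points over variable segments and -4.19 to 1.97 points with 1 library left out (0.23 without vehicle replicate 3), and the mu share difference was -5.16 to 6.62 points. The causes were not tested. The sign of Ighm, Jchain, Ms4a1 and the summed antibody level held in all alternatives run for them.

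With the replicate number as a block, 2337 genes and 32 listed genes were called at the adjusted and unadjusted thresholds, and Cd79b had a log2 fold change of 1.85 (edgeR adjusted p = 0.0131). Nothing says that equal numbers mark paired mice, and with 2 UMBO libraries the check by correlation (0.453 and 0.760) cannot settle it. A mean of at least 1 CPM left no value for Cd79a, Cd79b, Ms4a1 and Mzb1. Counting error limits Mzb1, Ms4a1 and single variable segments most.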
